A study of Mus musculus with 22 samples.

Results

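The zinc finger gene clusters were the autosomal bins of 100 kb that overlapped 2 or more protein-coding genes named Zfp and a number in the GENCODE M21 annotation of the mouse genome (mm10). This rule used gene positions and no methylation value, and it gave 77 of 24618 autosomal bins (26327 bins in all), with 176 member genes of 358 such genes on the autosomes. Of these bins, 49 held 2 Zfp genes, 19 held 3 and 9 held 4 or 5. Since a gene can span the border of neighbouring bins, adjacent bins often share a gene and are not independent. Bins that followed each other within 500 kb were joined, which gave 34 clusters on 13 chromosomes. Single bins made up 16 clusters and 2 or 3 bins made up 11, while 7 clusters of 4 or more bins held 37 bins and 86 genes. Chromosome 7 held 26 of the bins, chromosome 17 held 13, chromosome 13 held 9 and chromosome 4 held 6.

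The tissues were cortex (the whole cerebral cortex without hippocampus), olfactory bulb and cerebellum of C57BL/6 mice of 8 weeks, all female according to the methods of the study, and the labels name no treatment or altered allele. 5mC, methylated cytosine, was measured by oxBS-seq, a bisulfite method in which a prior oxidation step takes 5hmC out of the signal. There were 3 oxBS-seq libraries of cortex, and 2 each of cerebellum and olfactory bulb. 5hmC, the oxidised form of 5mC, was measured by TAB-seq in 3 libraries of each tissue. Both came as a level per bin, a fraction from 0 to 1, in bins of 100 kb for 5mC and of 1 Mb for 5hmC, without read counts, so the depth behind a level is unknown and the error given is the SD between libraries, which the study describes as independent mice. Whole tissue mixes cell types, and a change in the mixture cannot be told apart from a change within a cell type. The labelled tissue was not checked against marker genes, because the RNA-seq samples were not analysed here.

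Most Zfp genes encode proteins with a row of C2H2 zinc fingers, each of which folds around a zinc ion and reads a few bases of DNA. Many carry a KRAB domain, which recruits the scaffold protein Trim28 and, through it, the histone methyltransferase Setdb1 and HP1 proteins. Such complexes silence transposable elements and some genes by histone methylation and DNA methylation. These genes arose by repeated tandem duplication, so they stand next to each other in clusters and their copies resemble each other, most of all in the linker between fingers.

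To show what the members share, the coding sequences of the 176 member genes were searched for the word found in most of them, and 3 word lengths were tried in turn, each chosen after the result of the one before. The word of 15 bases with most copies, GGAGAGAAACCTTAC, lay in 46 member genes (26.1%) and in 0.209% of 21579 other protein-coding genes. The word of 12 bases found in most genes, CTGGAGAGAAAC, lay in 76 member genes (43.2%) and in 0.598% of the others. The word of 10 bases, GGAGAGAAAC, lay in 113 member genes (64.2%) and in 1.34% of the others, with up to 16 copies in a gene. The word of 10 bases lies within both longer ones and is part of the sequence that encodes the linker. On both strands of the genome the words of 15, 12 and 10 bases were found in 29, 49 and 69 of the 77 bins, against 0.54%, 4.73% and 49.0% of all autosomal bins. Which clusters held most copies changed with the length, so no statement about clusters is drawn from it. None of the 3 words holds a CpG site. A coding stretch of 180 bases is printed for Zfp985, of the cluster that was lower in cerebellum, and for Zfp934, of the bin with the highest 5mC, both chosen after the bins' values were seen. The capitals mark the word of 10 bases (GRCm38, read 5′ to 3′ on the strand of the gene).
Zfp985 coding exon, chr4:147583367-147583546, + strand: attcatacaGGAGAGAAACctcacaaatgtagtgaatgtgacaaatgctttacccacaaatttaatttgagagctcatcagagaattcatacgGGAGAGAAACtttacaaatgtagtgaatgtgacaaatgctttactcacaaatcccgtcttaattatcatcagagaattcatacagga
Zfp934 coding exon, chr13:62518199-62518378, - strand: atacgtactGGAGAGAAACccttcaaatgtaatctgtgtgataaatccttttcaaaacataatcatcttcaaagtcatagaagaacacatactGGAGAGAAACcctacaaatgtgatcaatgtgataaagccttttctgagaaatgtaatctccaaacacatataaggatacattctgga

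The bins differed in CpG sites, the places where most 5mC is found. A member bin held a median of 919 CpG sites (range 536 to 2030), compared with 1084 in the 6901 bins with 2 or more other protein-coding genes, 524 in the 289 bins with 2 or more olfactory receptor (Olfr) genes and 776 in all autosomal bins. The coding sequence of the member genes held a median of 17.1 CpG sites per kb (range 1.53 to 137) and that of other protein-coding genes 27.1. RefSeq promoter sequences, mostly upstream of the start site, were found for 152 of the 176 genes and held a median of 12 CpG sites. Over 26794 genes with such a sequence the median was 7, and 63.8% against 44.3% held 10 or more. This wider set was not filtered for protein-coding genes and includes the member genes, so it is not like the set of other protein-coding genes above. The promoters of Zfp784, in the bin with the lowest 5mC, and of Zfp935, in the bin next to that with the highest and itself among the 3 highest, are shown as 2 cases and hold 27 and 8 CpG sites, in capitals (GRCm38.p6). They were chosen after the bins' values were seen, and a level per 100 kb does not resolve a promoter.
Zfp784 promoter, chr7:5038397-5038696, - strand: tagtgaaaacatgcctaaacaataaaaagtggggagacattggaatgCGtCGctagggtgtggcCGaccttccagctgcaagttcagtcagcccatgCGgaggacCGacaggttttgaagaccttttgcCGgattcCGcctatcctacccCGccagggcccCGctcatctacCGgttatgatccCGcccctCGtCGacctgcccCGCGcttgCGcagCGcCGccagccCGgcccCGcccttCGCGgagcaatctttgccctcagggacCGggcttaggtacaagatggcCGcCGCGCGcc
Zfp935 promoter, chr13:62466763-62467062, - strand: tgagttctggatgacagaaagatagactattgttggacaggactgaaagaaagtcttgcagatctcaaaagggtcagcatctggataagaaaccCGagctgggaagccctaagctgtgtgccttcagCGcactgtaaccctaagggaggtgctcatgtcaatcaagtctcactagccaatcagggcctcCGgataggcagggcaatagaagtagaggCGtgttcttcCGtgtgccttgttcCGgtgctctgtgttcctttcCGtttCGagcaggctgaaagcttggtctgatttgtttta

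The mean 5mC of the 77 bins was 0.654, 0.660 and 0.628 in the cortex libraries, 0.672 and 0.667 in those of olfactory bulb, and 0.683 and 0.671 in those of cerebellum. Cortex thus had a mean of 0.647 ± 0.0172 (SD, n = 3), olfactory bulb one of 0.669 ± 0.00364 (n = 2) and cerebellum one of 0.677 ± 0.00852 (n = 2). Cortex replicate 3 was the lowest library here and also over all autosomal bins (0.657, against 0.681 and 0.684 in the other cortex libraries). Bins with 2 or more other protein-coding genes had a mean of 0.628 ± 0.0154 in cortex, 0.675 ± 0.0119 in cerebellum and 0.658 ± 0.00564 in olfactory bulb. The zinc finger bins had the higher mean in each tissue, by the least in cerebellum. Both sets come from the same libraries, so the SD between libraries does not measure the spread of this difference. The olfactory receptor bins, the other large family of gene clusters described here, lay higher in every tissue. Their tissue means, in rising order, were 0.738, 0.757 and 0.768.

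Levels differed widely within the set. The lowest bin (chromosome 7, 5000001 to 5100000), with Zfp524, Zfp865, Zfp784 and Zfp580, had levels of 0.367, 0.423 and 0.388 in cortex, 0.402 and 0.363 in olfactory bulb, and 0.44 and 0.461 in cerebellum. Next were the bin of Zfp213 and Zfp13 (chromosome 17, 23500001 to 23600000), with 0.46 ± 0.026 in cortex, and that of Zfp623 and Zfp707 (chromosome 15, 75900001 to 76000000), with 0.475 ± 0.0188. The highest bins were the neighbours that share Zfp935 and Zfp934 (chromosome 13, 62400001 to 62600000), at 0.784 ± 0.0249 and 0.83 ± 0.017 in cortex, and the bin of Zfp442 and Zfp345 (chromosome 2, 150400001 to 150500000), at 0.801 ± 0.00711. By chromosome, the mean in cortex ran from 0.516 on chromosome 15 and 0.589 on chromosomes 6 and 16 to 0.726 on chromosome 13 and 0.735 on chromosome 4. Chromosome 16 held 1 bin and chromosome 15 only clusters of 1 bin, against 9 bins on chromosome 13 and 6 on chromosome 4.

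5mC was lower in bins with more CpG sites, with a Spearman correlation across the 77 bins of -0.73 in cortex, -0.70 in the olfactory bulb and -0.67 in cerebellum. The points share libraries, and neighbouring bins share genes. With the number of Zfp genes in the bin the correlation was -0.12, -0.07 and -0.03. In bins of 750 to 999 CpG sites the 21 zinc finger bins had a mean of 0.693 in cortex, compared with 0.65 in 1434 bins of other genes, and with 1500 to 2499 CpG sites 9 zinc finger bins had 0.515 against 0.537 in 901 others. At 500 to 749 and at 1000 to 1499 CpG sites the means were 0.711 against 0.708 and 0.603 against 0.608.

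**Figure D1:**
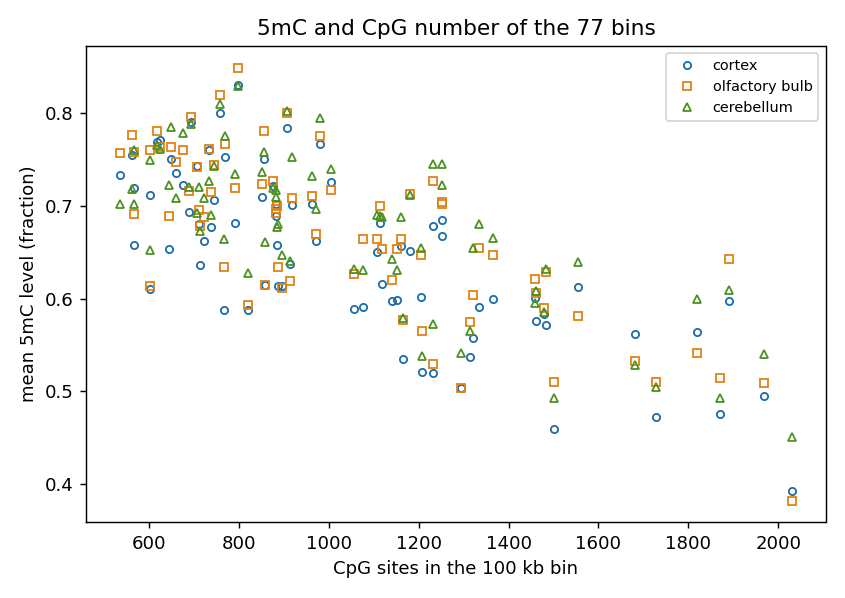
CpG sites per 100 kb bin (x axis) against the mean 5mC level over the libraries of a tissue (y axis, fraction) for the 77 zinc finger bins, 1 symbol per bin and tissue. Levels fall from over 0.8 in bins with fewer than 1000 CpG sites to 0.409 as the mean of the tissues in the bin with 2030 sites.

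The comparison between tissues asked in which zinc finger bins the level of 5mC changed. In the limma fit over all 25664 bins, on log2(level/(1 − level)), with Benjamini-Hochberg adjustment and a threshold of 0.05, 14 of the 77 bins were higher in olfactory bulb than in cortex and none lower (25 with an unadjusted p under 0.05, in either direction), whereas 37.6% of all bins were higher and 2.18% lower. In cerebellum against cortex 32 bins were higher and 3 lower, against 71.9% and 4.44% of all bins. In cerebellum against olfactory bulb 7 were higher and 3 lower, against 35.3% and 7.69%. Leaving out 1 library took the counts in either direction as low as 1 (without olfactory bulb replicate 1), 15 (without cerebellum replicate 1) and 1 (without olfactory bulb replicate 2), and without the filter on levels of 0 or 1 they were 3, 28 and 6. Shares of all bins are not given for these settings, so the falls in count are not set against the genome. With all libraries, the share called in either direction was below that of all bins in every pair. There 14, 35 and 10 of the 77 bins were called against 39.7%, 76.4% and 43.0% of all bins (18.2% and 45.5% of the members in the first 2 pairs).

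These directions are those of the whole genome. The median difference over all bins was 0.22 in olfactory bulb against cortex, 0.43 in cerebellum against cortex and 0.19 in cerebellum against olfactory bulb, on the log2 scale, and over the zinc finger bins it was 0.14, 0.21 and 0.07. In bins of 2 or more other protein-coding genes it was 0.20, 0.34 and 0.12. Of the 77 bins, 48, 70 and 62 lay below the median of all bins in the 3 comparisons, which share tissues. When each library was centred on its own median, which moves all bins alike, 8, 34 and 22 of the 77 bins were called lower and 0 higher, next to 9.90%, 24.3% and 21.3% of all bins called lower and 8.81%, 25.7% and 22.1% called higher. The 8 bins in olfactory bulb against cortex are near the share of all bins. These counts compare the zinc finger bins with the whole genome and not with their surroundings. Relative to their own flanks, described below, more bins were higher than lower in cerebellum than in either other tissue.

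**Figure D2:**
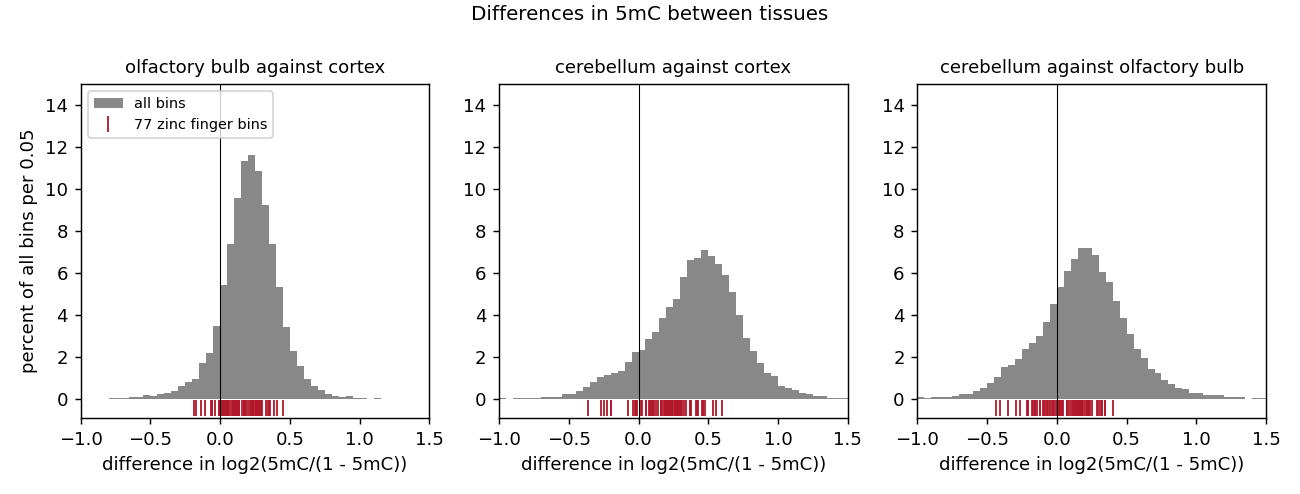
Differences in 5mC between tissues on the log2(level/(1 − level)) scale (x axis, shown from -1 to 1.5), as the percent of all 25664 bins per step of 0.05 (grey, y axis) and for each of the 77 zinc finger bins (red ticks). The ticks sit to the left of the grey peak, with medians of 0.14, 0.21 and 0.07 against 0.22, 0.43 and 0.19; after centring of the libraries their medians were -0.09, -0.20 and -0.11.

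The cluster on chromosome 4 (147300001 to 147900000), from Zfp988 to Zfp933 with 8 Zfp genes in 5 bins, went against the majority. Its mean level was 0.743, 0.735 and 0.72 in the cortex libraries, 0.745 and 0.752 in olfactory bulb, and 0.717 and 0.701 in cerebellum. Both cerebellum libraries lay below all libraries of the other tissues. In the bin of Zfp982 and Zfp985 (147500001 to 147600000) the levels were 0.763, 0.751 and 0.75 in cortex, 0.771 and 0.781 in olfactory bulb, and 0.729 and 0.709 in cerebellum. The difference was -0.27 ± 0.12 (SE) from cortex (adjusted p = 0.0314) and -0.44 ± 0.13 from olfactory bulb (adjusted p = 0.00286) on the log2 scale. Such an SE rests on a spread shared across the bins, not on the spread of the bin's own libraries. Of the 5 bins, 2 were called lower in cerebellum than in cortex and 2 lower than in olfactory bulb, and none higher. Of all bins, 4.44% and 7.69% were called lower in these comparisons. The first bin, of Zfp988 and Zfp978, was 0.764 and 0.751 in olfactory bulb and 0.71 and 0.694 in cerebellum (-0.41 ± 0.13, adjusted p = 0.00626).

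A single bin before it (chromosome 4, 146100001 to 146200000), with Zfp987 and Zfp600, was also lowest in cerebellum, while its cortex and olfactory bulb libraries overlapped. Its levels were 0.752, 0.757 and 0.719 in cortex, 0.746 and 0.737 in olfactory bulb, and 0.701 and 0.683 in cerebellum. It fell by 0.36 against cortex (SE 0.12, adjusted p = 0.00358) and by 0.35 against olfactory bulb (SE 0.13, adjusted p = 0.0191). All bins called lower in cerebellum thus lay on chromosome 4: the bins of Zfp987 and Zfp600, of Zfp982 and Zfp985, and of Zfp534 and Zfp984 (adjusted p = 0.0458) against cortex, and the first 2 with that of Zfp988 and Zfp978 against olfactory bulb. Centring the libraries made the differences larger, for example -0.77 for Zfp987 and Zfp600 against cortex. Without cerebellum replicate 2 no bin was called lower in either comparison (adjusted p = 0.0681 for Zfp987 and Zfp600 and 0.226 for Zfp982 and Zfp985 against cortex), and the call of Zfp982 and Zfp985 against cortex was also lost without cortex replicate 1 (adjusted p = 0.12) or either library of olfactory bulb (0.0501).

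The cluster on chromosome 7 from Zfp84 to Zfp146 (29700001 to 30200000), with 15 genes in 5 bins, was the other way round. Its mean level was 0.635, 0.642 and 0.599 in cortex, 0.671 and 0.674 in olfactory bulb, and 0.699 and 0.68 in cerebellum, with no overlap between the tissues. All 5 bins were called higher in cerebellum than in cortex, where 71.9% of all bins were called higher. In olfactory bulb against cortex 4 were called higher, next to 37.6% of all bins. The direction is thus that of the whole genome. The bin of Zfp27, Zfp383, Zfp74 and Zfp568 (29900001 to 30000000), where Zfp568 encodes a KRAB zinc finger repressor needed in the mouse embryo, rose by 0.56 ± 0.12 in cerebellum against cortex (adjusted p = 7.71e-06) and by 0.39 ± 0.12 in olfactory bulb against cortex (adjusted p = 0.00552). Its cortex replicate 3 was low at 0.537, next to 0.612 and 0.624, and without that library the rise in olfactory bulb was 0.23 (adjusted p = 0.103). After centring of the libraries the differences were 0.15 and 0.16, and neither was called.

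Other single bins that moved were spread over the chromosomes. In cerebellum against cortex the largest rises beside Zfp27 to Zfp568 were in the bin of Zfp251 and Zfp7 (chromosome 15, 76800001 to 76900000), at 0.565, 0.546 and 0.562 in cortex and 0.686 and 0.624 in cerebellum (0.60 ± 0.12, adjusted p = 1.76e-06), and in that of Zfp287 and Zfp286 (chromosome 11, 62700001 to 62800000), at 0.68, 0.684 and 0.639 against 0.741 and 0.748 (0.54 ± 0.12, adjusted p = 1.62e-05). In olfactory bulb against cortex the largest were in the bin of Zfp282, Zfp212 and Zfp956 (chromosome 6, 47900001 to 48000000), at 0.605, 0.586 and 0.583 against 0.676 and 0.653 (0.45 ± 0.12, adjusted p = 0.00112), and in that of Zfp879, Zfp454 and Zfp2 (chromosome 11, 50800001 to 50900000; 0.41 ± 0.12, adjusted p = 0.00346). None of these rises was called after the libraries were centred. In cerebellum against olfactory bulb the bin with the lowest 5mC, of Zfp524, Zfp865, Zfp784 and Zfp580, rose by 0.41 ± 0.13 (adjusted p = 0.00627), followed by the bins of Zfp61 and Zfp94 (chromosome 7, 24300001 to 24400000; 0.35 ± 0.13, adjusted p = 0.0199) and of Zfp663 and Zfp334 (chromosome 2, 165300001 to 165400000; 0.34 ± 0.13, adjusted p = 0.0226). These too were lost after centring, and each was lost without at least 1 library.

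Of the other large clusters, 4 had bins called higher in cerebellum than in cortex and 1 had none. In that comparison 71.9% of all bins were called higher. In the cluster from Zfp712 to Zfp493 (chromosome 13, 67000001 to 67800000; 17 genes in 7 bins) the mean was 0.703 ± 0.0126 in cortex, 0.73 ± 0.0104 in the olfactory bulb and 0.737 ± 0.0112 in cerebellum, and 4 bins were called higher in cerebellum than in cortex. From Zfp54 to Zfp758 (chromosome 17, 21400001 to 22400000; 15 genes in 7 bins) it was 0.692 ± 0.0185, 0.719 ± 0.00641 and 0.732 ± 0.0039, with 5 bins called. In the cluster from Zfp180 to Zfp575 (chromosome 7, 24100001 to 24600000; 12 genes in 4 bins) and in that from Zfp871 to Zfp101 (chromosome 17, 32700001 to 33400000; 10 genes in 5 bins) 1 bin each was called in that comparison. The lowest large cluster, from Zfp553 to Zfp646 (chromosome 7, 127200001 to 127900000; 9 genes in 4 bins), was 0.529 ± 0.0278 in cortex, 0.538 ± 0.0126 in the olfactory bulb and 0.546 ± 0.003 in cerebellum, and no bin of it was called in any pair of tissues.

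**Figure D3:**
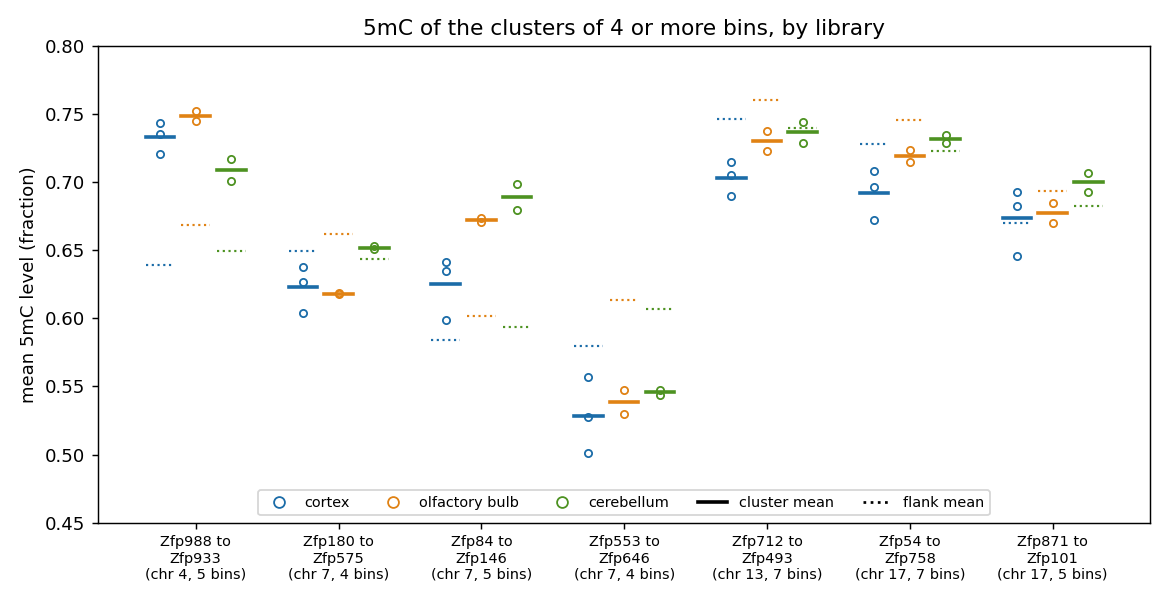
Mean 5mC level (y axis, fraction, from 0.45) of the 7 clusters of 4 or more bins, with 1 circle per library, a bar for the tissue mean and a dotted bar for the mean of the flanks. In Zfp988 to Zfp933 the cerebellum circles (0.717 and 0.701) sit below those of the other tissues, and in Zfp84 to Zfp146 they (0.699 and 0.68) sit above them, the second order being that of the whole genome.

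The clusters were also set against their surroundings, the nearest 5 bins on each side that were not zinc finger bins. They reached 500 kb, or up to 1100 kb where other zinc finger bins lay between. A flank bin could lie in a gap within a cluster and hold part of a Zfp gene. For example, Zfp982 starts (chromosome 4, 147492417) in a gap between zinc finger bins. The flanks had a mean of 0.66 ± 0.0147 (cortex), 0.682 ± 0.00334 (olfactory bulb) and 0.671 ± 0.0105 (cerebellum). The zinc finger bins lay below their flanks by 0.0126, 0.0113 and 0.0161 in the cortex libraries and by 0.013 and 0.0134 in olfactory bulb, and above them by 0.0045 and 0.00735 in cerebellum. The direction in cerebellum turned with flanks of 200 kb, where the mean difference was -0.00533 and 24 bins were called above and 27 below, and that in olfactory bulb turned with the median of the bins (0.0025). These means hide differences in both directions. In all 7 libraries 25 bins lay below their flanks and 23 above, and 29 were mixed. In the limma fit 24 bins were above and 31 below their flanks in cortex, 24 and 30 in olfactory bulb, and 33 and 26 in cerebellum, next to 40.1% and 31.7%, 37.6% and 29.3%, and 37.8% and 27.9% of all autosomal bins treated in the same way. The members called in either direction, 71.4%, 70.1% and 76.6%, were near the background of 71.8%, 66.9% and 65.7%.

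Bins above their flanks in every tissue included those of Zfp626 and Zfp59 and of Zfp974 and Zfp850 (chromosome 7, 27800001 to 28000000). The second of these was 0.711, 0.714 and 0.703 in cortex, where its flanks had a mean of 0.568 (0.142 ± 0.00952 above, adjusted p = 2.62e-10). The bin of Zfp872, Zfp809, Zfp599 and Zfp810 (chromosome 9, 22200001 to 22300000) was 0.139 ± 0.00639 above its flanks in cortex. Its member Zfp809 encodes a protein that binds the primer binding site of retroviruses and silences them. Below their flanks in every tissue were the bins of Zfp524 to Zfp580, with differences of -0.243 in cortex, -0.283 in the olfactory bulb and -0.186 in cerebellum, of Zfp787 and Zfp444 (chromosome 7, 6100001 to 6200000), with -0.202, -0.172 and -0.173, and of Zfp213 and Zfp13, with -0.191, -0.173 and -0.166. The cluster from Zfp988 to Zfp933 stood 0.0936 ± 0.0129 above its flanks in cortex, 0.0798 ± 0.0135 in the olfactory bulb and 0.0595 ± 0.00277 in cerebellum.

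**Figure D4:**
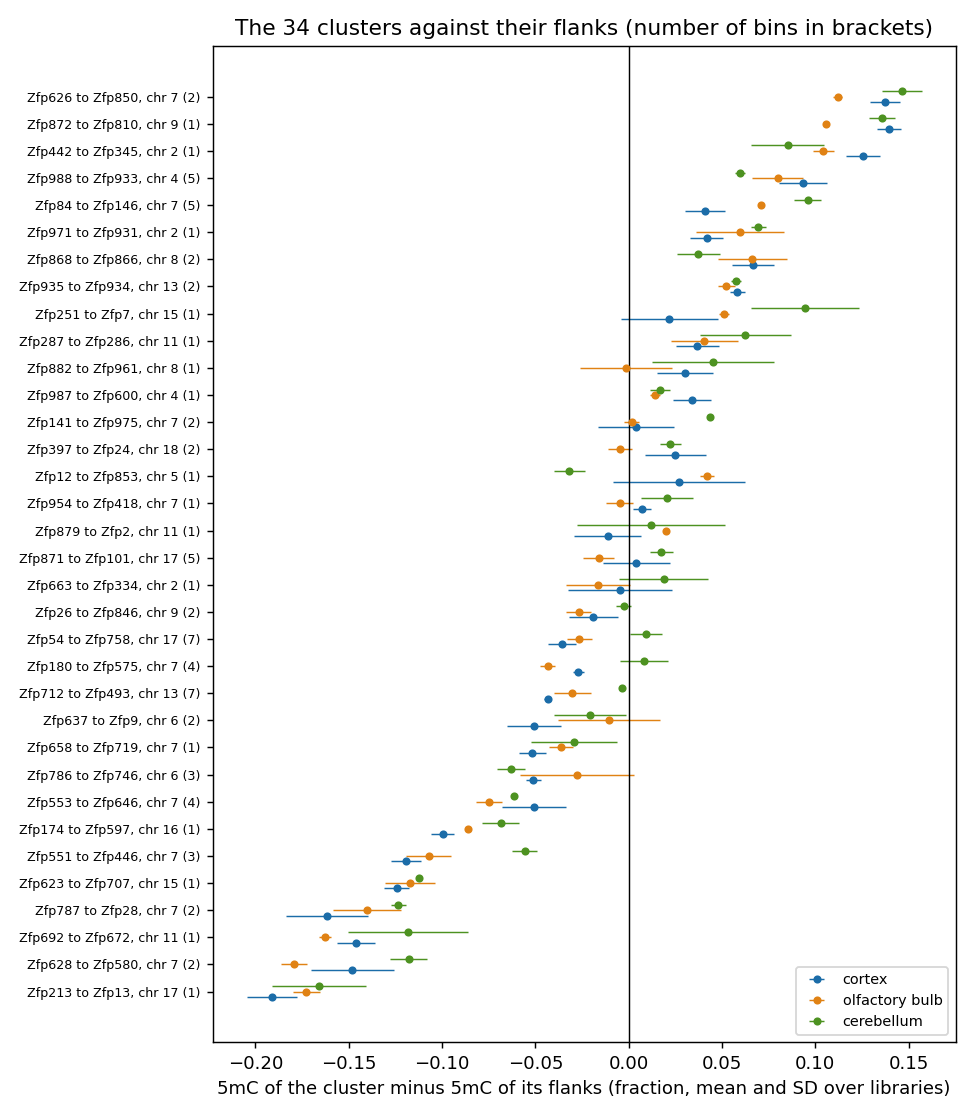
5mC of each of the 34 clusters minus 5mC of its flanks (x axis, fraction, mean and SD over libraries), ordered by the mean of the tissues, with the number of bins in brackets. The clusters run from -0.191 for the bin of Zfp213 and Zfp13 in cortex to 0.146 for Zfp626 to Zfp850 in cerebellum, and 11 clusters lay below and 10 above their flanks in all 7 libraries.

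Whether the distance from the flanks differed between tissues was tested in the same fit, which removes shifts common to a bin and its surroundings. Between olfactory bulb and cortex 4 bins were called, 2 in each direction (5.61% and 5.69% of all bins). In either direction this is 5.19% of the members against 11.3% of all bins. Between cerebellum and cortex 24 bins were higher and 8 lower relative to their flanks in cerebellum (14.9% and 13.3% of all bins), which is 41.6% of the members against 28.2% of all bins. In the same way, between cerebellum and olfactory bulb 18 were higher and 4 lower (14.2% and 12.8%), or 28.6% against 27.1%. Without cerebellum replicate 2 these counts were 11 and 2, and 6 and 1. Shares of all bins are not given for that fit. In the cluster from Zfp712 to Zfp493, 6 of 7 bins were higher relative to their flanks in cerebellum than in cortex. The mean difference from the flanks for this cluster was -0.0433 ± 0.00183 in cortex and -0.00351 ± 0.00113 in cerebellum. In Zfp84 to Zfp146 4 of 5 bins were higher, at 0.0408 ± 0.0106 above the flanks in cortex and 0.096 ± 0.00712 in cerebellum. In Zfp988 to Zfp933 4 of 5 bins were lower.

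5hmC could be followed only in bins of 1 Mb, of which 41 held member bins, so that most of the sequence in such a bin lies outside them. Their mean 5hmC was 0.129, 0.14 and 0.125 in the cortex libraries, 0.107, 0.114 and 0.108 in olfactory bulb, and 0.0873, 0.086 and 0.0896 in cerebellum. The means were 0.131 ± 0.00785, 0.11 ± 0.00396 and 0.0876 ± 0.00183 (n = 3 each), below those of 0.169 ± 0.0098, 0.15 ± 0.0044 and 0.0987 ± 0.00183 over all 2413 autosomal bins. The libraries of the 3 tissues did not overlap in this mean. In limma 37 bins were lower and 1 higher in olfactory bulb than in cortex (67.7% and 3.25% of all bins), in total 92.7% of the members against 70.9% of all bins. All 41 were lower in cerebellum than in cortex (97.6% of all bins, and 98.1% in either direction), and 36 or 87.8% were lower in cerebellum than in olfactory bulb (91.8% of all bins lower, 1.2% higher and 93.0% either). The 1 higher bin (chromosome 2, 165000001 to 166000000) holds Zfp663 and Zfp334, at 0.191, 0.2 and 0.182 in cortex and 0.21, 0.215 and 0.206 in olfactory bulb.

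The size of these falls differed from that of all bins. The median difference was -0.37 in olfactory bulb against cortex, compared with -0.24 over all bins, and -0.67 against -0.97 and -0.38 against -0.72 in the comparisons of cerebellum with cortex and with olfactory bulb. After each library was centred on its median, 25 bins were called lower and 4 higher in olfactory bulb than in cortex (33.0% and 36.2% of all bins). In cerebellum 33 were then called higher and 2 lower than in cortex (50.3% and 40.1% of all bins), and 39 higher and 0 lower than in olfactory bulb (50.9% and 39.1%). Against the nearest bins with no member, which could be formed for 40 bins, 22 were higher and 16 lower in cortex, 16 and 19 in olfactory bulb and 21 and 16 in cerebellum (44.3% and 41.0%, 45.4% and 42.8%, and 46.9% and 46.8% of all bins, or 85.3%, 88.2% and 93.7% in either direction). On the fraction scale the balance in cortex was 16 higher and 21 lower and that in cerebellum 16 and 18.

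Among the 8 bins of 1 Mb with 3 or more member bins, 5hmC was lowest in that of Zfp988 to Zfp933 (chromosome 4, 147000001 to 148000000). Its levels were 0.0501, 0.0542 and 0.053 in cortex, 0.0354, 0.0414 and 0.0369 in olfactory bulb, and 0.0274, 0.0303 and 0.0323 in cerebellum. The nearest 1 Mb bins with no member bin had a mean of 0.139 in cortex, 0.117 in the olfactory bulb and 0.0926 in cerebellum. The difference from these nearest bins was -1.46, -1.57 and -1.56 on the log2 scale. They leave out the bin directly before that of Zfp988 to Zfp933, which also holds a member bin. That bin, with Zfp987 and Zfp600, was lower still, at 0.0207, 0.0223 and 0.0209 in cortex. It had 0.0126, 0.0161 and 0.0139 in olfactory bulb, and 0.0132, 0.0151 and 0.0161 in cerebellum. Here the libraries of cerebellum and olfactory bulb overlapped, and their difference (0.06 on the log2 scale) was not called. The study places the very low 5hmC outside gene bodies within the error range of TAB-seq. Mean 5mC and 5hmC of this 1 Mb bin of Zfp988 to Zfp933 summed to 0.761 in cortex, 0.763 in the olfactory bulb and 0.727 in cerebellum. This sum joins separate libraries and is given without an error.

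The next lowest were the bin of Zfp551 to Zfp446 (chromosome 7, 12000001 to 13000000), at 0.0661 ± 0.00366 in cortex, and that of Zfp54 to Zfp943 (chromosome 17, 21000001 to 22000000), at 0.0823 ± 0.00773. The second fell by 0.63 in olfactory bulb against cortex (SE 0.07, adjusted p = 2.24e-16) and by 1.01 in cerebellum against cortex (SE 0.07, adjusted p = 1.76e-42). These SEs and p-values rest on a spread shared across the bins, not on the spread of this bin's own libraries. The bin of Zfp712 to Zfp493 (chromosome 13, 67000001 to 68000000), with 7 member bins, was 0.0995, 0.112 and 0.0946 in cortex, 0.0648, 0.0722 and 0.0695 in olfactory bulb, and 0.0509, 0.0549 and 0.055 in cerebellum. It fell by 0.62 and 1.00 in the same comparisons. After centring the differences in olfactory bulb were -0.39 and -0.38, while those in cerebellum were 0.04 and 0.04 and were not called. The highest were the bins of Zfp553 to Zfp646 (0.157 ± 0.0127 in cortex), Zfp84 to Zfp568 (0.158 ± 0.0108) and Zfp871 to Zfp952 (0.152 ± 0.0108), and between cerebellum and olfactory bulb the last of these fell by 0.45 (SE 0.07, adjusted p = 1.56e-09) and the bin of Zfp180 to Zfp575 by 0.39 (SE 0.07, adjusted p = 1.31e-07), which turned to 0.36 and 0.41 higher after centring.

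**Figure D5:**
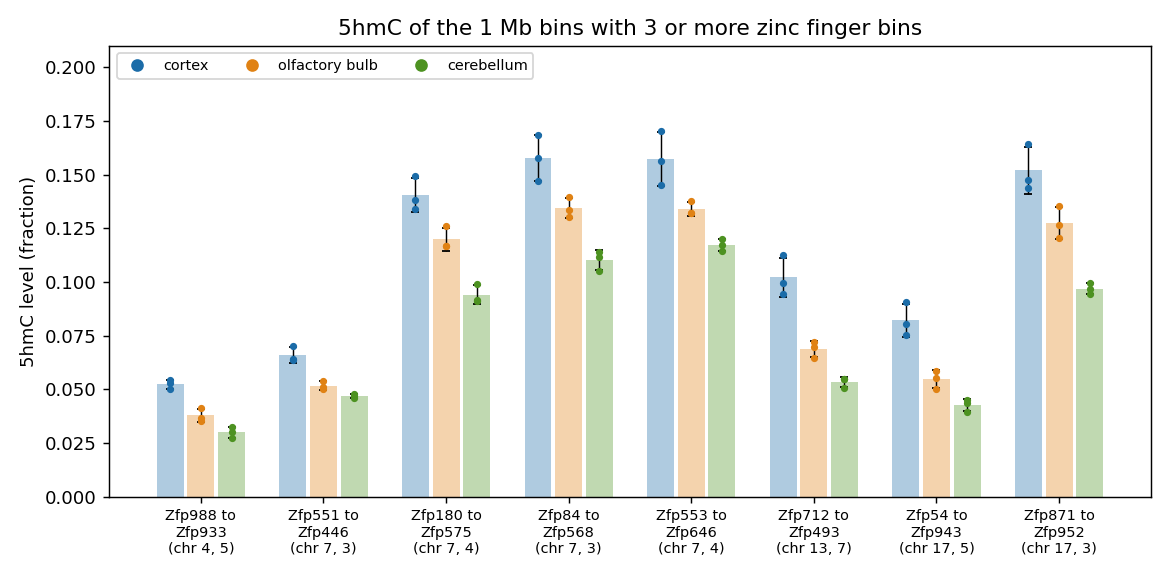
5hmC level (y axis, fraction) of the 8 bins of 1 Mb that hold 3 or more member bins (number in brackets), as the mean (bar) and SD (error bar) over 3 libraries per tissue, with 1 point per library. Levels fall from cortex over olfactory bulb to cerebellum in every bin, from 0.0524 to 0.03 in that of Zfp988 to Zfp933; after centring of the libraries on their medians the order of cerebellum and olfactory bulb turns, with 39 of the 41 bins higher in cerebellum.

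A list of 19 genes covered the silencing pathway of KRAB zinc finger proteins. It also held general genes of DNA methylation, such as Dnmt1, so not every gene on it encodes a direct partner. Each gene lay in its own bin. Of these bins 3 were called higher in 5mC in olfactory bulb than in cortex (37.6% of all bins), 13 in cerebellum than in cortex (71.9%) and 7 in cerebellum than in olfactory bulb (35.3%). The last 2 counts are near the share of all bins. None was called lower, though several had differences below 0, such as that of Uhrf1 in olfactory bulb against cortex (-0.23). The list had median differences of 0.18, 0.36 and 0.23 (all bins 0.22, 0.43 and 0.19). The bin of Setdb1, the histone methyltransferase, was 0.662, 0.689 and 0.617 in cortex, 0.741 and 0.728 in olfactory bulb, and 0.743 and 0.72 in cerebellum (adjusted p = 1.07e-04 and 3.82e-05 against cortex). The bin of Trim28, the scaffold protein, was between 0.431 and 0.473 in all libraries and was not called in any comparison. Pphln1, a part of the silencing complex HUSH, had the largest difference on the list in cerebellum against cortex (0.97, adjusted p = 1.17e-14), at 0.726, 0.695 and 0.692 in cortex and 0.832 and 0.816 in cerebellum.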

How the data were processed

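5mC of 7 oxBS-seq libraries and 5hmC of 9 TAB-seq libraries was analysed. The authors aligned reads to mm10 with Bismark, kept uniquely mapped reads and deposited a fraction per bin (100 kb for 5mC, 1 Mb for 5hmC); how sites were combined within a bin is not given in the sources used here. Depth is unknown, so no counting interval is given.

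Levels were transformed to log2(level/(1 − level)) and fitted over all bins above 0 and below 1 in every library with limma 3.58.1 (R 4.3.3), without a replicate block, with Benjamini-Hochberg adjustment over all bins and a threshold of 0.05. This fit between tissues used a shared estimate of the spread. The SE is thus not the bin's own, and p does not reflect the spread of its own libraries. In a second fit each autosomal bin was set against the mean of its nearest 5 non-member bins a side (1 for 5hmC). On simulated data with changes of 0.5 and 0.2 log2, the fit found 90.5% and 5% for 5mC and 100% and 74% for 5hmC. The simulation changed few bins and gave all bins the same noise. In the data far more bins were called, which loosens the adjusted threshold, so these shares do not carry over. Same-numbered libraries deviated together only for 5hmC of cortex and olfactory bulb (r = 0.126, 0.344 and 0.250), where the block changed no call.

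The bins named were all clusters of 4 or more bins, the 3 bins highest and the 3 lowest in 5mC, per pair of tissues the 3 largest rises and falls among called bins whose libraries did not overlap, per tissue the 3 furthest from their flanks, and, of the 5hmC bins with 3 or more members, the 3 highest, the 3 lowest and the 2 largest changes; others are named beside a count. The members, the lists and the tests were chosen with earlier results of these data known. Chromosomes, genes and CpG sites came from GENCODE M21 and GRCm38. Alternatives were another scale, centring, no filter, the replicate block, other flanks, bins with 3 or more Zfp genes and leaving out each library.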

Additional observations from a re-analysis of the deposited data

Results flagged for a closer look

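The distance of a bin from its flanks differed between tissues by limma's test of that difference, with Benjamini-Hochberg adjustment over all bins, in 4 of the 77 bins between olfactory bulb and cortex, in 32 between cerebellum and cortex and in 22 between cerebellum and olfactory bulb (11.3%, 28.2% and 27.1% of all bins). The largest differences are given on the log2 scale. Between olfactory bulb and cortex they were -0.33 in the bin of Zfp668 and Zfp646 (adjusted p = 0.0246), which lay at -0.058 from its flanks in cortex and -0.112 in olfactory bulb, and 0.40 in that of Zfp248 and Zfp9 (adjusted p = 0.0169), at -0.030 and 0.037. Between cerebellum and cortex they were -0.37 in the bin of Zfp12, Zfp316 and Zfp853 (adjusted p = 0.0112), at -0.032 in cerebellum and 0.027 in cortex, and 0.56 in that of Zfp551 and Zfp606 (adjusted p = 0.000213), at 0.017 and -0.063. Between cerebellum and olfactory bulb they were -0.46 in the bin of Zfp12, Zfp316 and Zfp853 (adjusted p = 0.00505) and 0.61 in that of Zfp524, Zfp865, Zfp784 and Zfp580 (adjusted p = 0.00134), which lay at -0.186 from its flanks in cerebellum and -0.283 in olfactory bulb.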

How the results depend on the processing

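Depth is unknown and 2 tissues had 2 oxBS-seq libraries, so small changes of 5mC can be missed. Of the values for single named bins under each alternative, 478 kept their direction and call, 42 kept the direction only and 4 reversed. The cause of the changes was not tested. Counts over bins with 3 or more Zfp genes rest on fewer bins, for 5mC 19 with 3 genes and 9 with 4 or 5. They cannot be set directly beside counts over all members. In this section counts under the alternatives are given without the share of all bins.

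With libraries centred, 5mC calls were 8 (from 14) in olfactory bulb against cortex, 34 (from 35) in cerebellum against cortex and 22 (from 10) in cerebellum against olfactory bulb, all lower, and 5hmC calls were 35 in cerebellum against cortex and 39 in cerebellum against olfactory bulb, mostly higher. The 5hmC bins on chromosome 17 at 21 Mb and chromosome 13 at 67 Mb gave 0.0352 and 0.0388 in cerebellum against cortex, and those on chromosome 17 at 32 Mb and chromosome 7 at 24 Mb gave 0.36 and 0.41 in cerebellum against olfactory bulb. Without the filter on levels of 0 or 1 the 5mC counts were 3 in olfactory bulb against cortex and 6 in cerebellum against olfactory bulb, and for differences from the flanks 0 in olfactory bulb and cortex and 14 in cerebellum and olfactory bulb. With the replicate block the 5mC count in olfactory bulb against cortex was 9 by the numbers of the labels and 26 by those of the library names, in cerebellum against cortex 31 and 47, and in cerebellum against olfactory bulb 15 and 12; the numbers pair no oxBS-seq libraries. For 5hmC the block gave 38, 41 and 37 and no other call changed.

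In bins with 3 or more Zfp genes the 5mC counts were 9, 14 and 1 between tissues, 20, 17 and 20 against flanks in cortex, olfactory bulb and cerebellum, and 1, 11 and 9 for differences from the flanks. For 5hmC they were 19, 19 and 18 between tissues and 18, 18 and 17 against neighbours. The balance reversed in cerebellum against flanks of 200 kb (51 bins, 24 above and 27 below) and with 3 or more genes (9 above and 11 below), and for 5hmC on the fraction scale in cortex (37) and cerebellum (34) and with 3 or more genes in olfactory bulb (10 above and 8 below).

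Leaving out 1 library gave 1 to 15 calls in olfactory bulb against cortex (1 without olfactory bulb replicate 1, 7 without its replicate 2 or without cortex replicate 1, 8 without cortex replicate 3), 15 to 38 in cerebellum against cortex (15 without cerebellum replicate 1) and 1 to 14 in cerebellum against olfactory bulb (1, lower, without olfactory bulb replicate 2, and 3 without cerebellum replicate 1). Against flanks it gave 55 to 57, 49 to 54 and 48 to 60 in the 3 tissues. Differences from the flanks ranged from 2 to 4, 13 to 33 (14 and 13 without cerebellum replicates 1 and 2) and 7 to 27 (10 without olfactory bulb replicate 1, 12 and 7 without cerebellum replicates 1 and 2). 5hmC gave 37 to 40, 41 and 32 to 39 between tissues, and 36 to 39, 34 to 36 and 37 against neighbours.

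Taking the median of the bins instead gave 0.679 in olfactory bulb and 0.692 in cerebellum for 5mC, and -0.00716, 0.0025 and 0.02 (0.01996) for the difference from flanks in cortex, olfactory bulb and cerebellum. Bins with 3 or more genes had 0.659 in olfactory bulb and lay at -0.0246 and -0.0186 from flanks in cortex and olfactory bulb. Flanks of 200 kb gave -0.0214, -0.0212 and -0.00533, and flanks of 1 Mb gave -0.0116 in olfactory bulb. For 5hmC the medians were 0.141, 0.116 and 0.0934, and the 8 bins with 3 or more member bins had 0.114, 0.0911 and 0.074. The difference from neighbours was 0.00454 and 0.00316 in cortex, -0.000827 and -0.00333 in olfactory bulb, and 0.00647 and 0.00131 in cerebellum, for bins with 3 or more genes and with 3 or more member bins, and the median in cerebellum was -0.0023.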
